A study of Mus musculus with 60 samples.

Results

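The spleens of untreated old mice were compared with those of young mice in 7 bulk RNA-seq libraries, out of 60 libraries in the series. The old group held 3 libraries from mice of 26 months (2 male and 1 female), and the young group held 4 libraries from mice of 3 months (2 male and 2 female). Libraries were assigned to the groups by their labels. Mice of both groups carried 4F het; R26::rtTA het on C57BL/6, which is 1 copy of a doxycycline-driven cassette for Oct4, Sox2, Klf4 and c-Myc together with 1 copy of the rtTA transactivator, and neither group was given doxycycline. A further 3 libraries, from old spleens in which the cassette had been induced, also entered the model. They shared its estimate of spread, its sex term, the filter on low counts and the scaling, and so could move the fold changes of old against young. The labels do not say that each library came from a separate mouse, so p-values measure the spread between these samples. In bulk samples, fewer cells of a type, less RNA per cell and a larger share of RNA from other cells cannot be told apart.

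The spleen filters blood and houses lymphocytes. Its white pulp holds B cell follicles, a T cell zone and, around the follicles, the marginal zone with its own B cells and macrophages. Its red pulp holds macrophages that take up worn red cells and recycle their iron, and in mice it also makes red cells, granulocytes and megakaryocytes. B cells that meet antigen can become germinal centre cells and then plasma cells, which secrete immunoglobulin. Naive T cells circulate through the T zone, and T cells that have met antigen take on effector or exhausted states.

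Old libraries 1 and 2 and young libraries 1 and 2 were from males, and the others were from females. Sample values below follow that numbering. Levels are CPM, counts scaled to a common library size, with TMM scaling, a correction for library composition. The 7 libraries held 20215164 to 32231737 counts. The tissue label held in every library: the B cell receptor gene Cd79b was at 275 to 398 CPM in old and 704 to 880.1 CPM in young spleens, and the red pulp macrophage factor Spic was at 109 to 136 CPM in old and 94.8 to 109 CPM in young spleens. Several libraries stood apart before any comparison was made. Old library 2 carried pancreatic acinar transcripts, with the 13 acinar genes summing to 2733 CPM there, to 11.9 and 19.3 CPM in the other old libraries and to 18.1 to 48.2 CPM in the young libraries. Young library 1 carried kidney transcripts at 43.3 CPM over 7 genes, against at most 0.416 CPM in each of the other 6 libraries, and fat transcripts at 128.4 CPM over 6 genes. Young library 3 also carried fat transcripts, at 71.2 CPM. The part of these transcripts in the results was not tested, beyond leaving libraries out. Old libraries varied more among themselves than young ones: the SD of log2 CPM within a group was larger in old spleens for 78.1% of genes, with medians of 0.31 in old and 0.16 in young spleens.

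Of 19356 genes tested with edgeR's quasi-likelihood test, 53 passed a Benjamini-Hochberg adjusted p of 0.05 (0.274% of genes). Among them 29 rose (0.150%) and 24 fell (0.124%) in old spleens. For each of the 53, the 3 old and 4 young libraries did not overlap. The number of calls depended strongly on single libraries. It was 0 without old library 1, without young library 1, 2, 3 or 4, and without old library 2 and young library 1 together. It was 75 without old library 2 and 47 without old library 3. Of the 53 genes, 31 were among those 75 and 20 were among those 47. The unadjusted p was under 0.05 for 5460 genes in the fit as given, and for 2832 to 5819 genes in these fits with libraries left out. Fitting only the 7 untreated libraries gave 2241 calls (11.9% of 18838 genes, 4.77% higher and 7.13% lower in old), and these held all 53. Groups of libraries without overlap were common among all genes tested, at 35.2% (15.4% higher and 19.8% lower in old). These shares, and the 11.9% for the 7 libraries alone, are the background for the counts of list members below. The lists were chosen with earlier results of these data known. A count above these shares therefore describes the members and is no test of a list. The median log2 fold change over all genes was 0.04. It was -0.093 when libraries were scaled by their totals alone, where 23 genes rose and 34 fell.

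**Figure D1:**
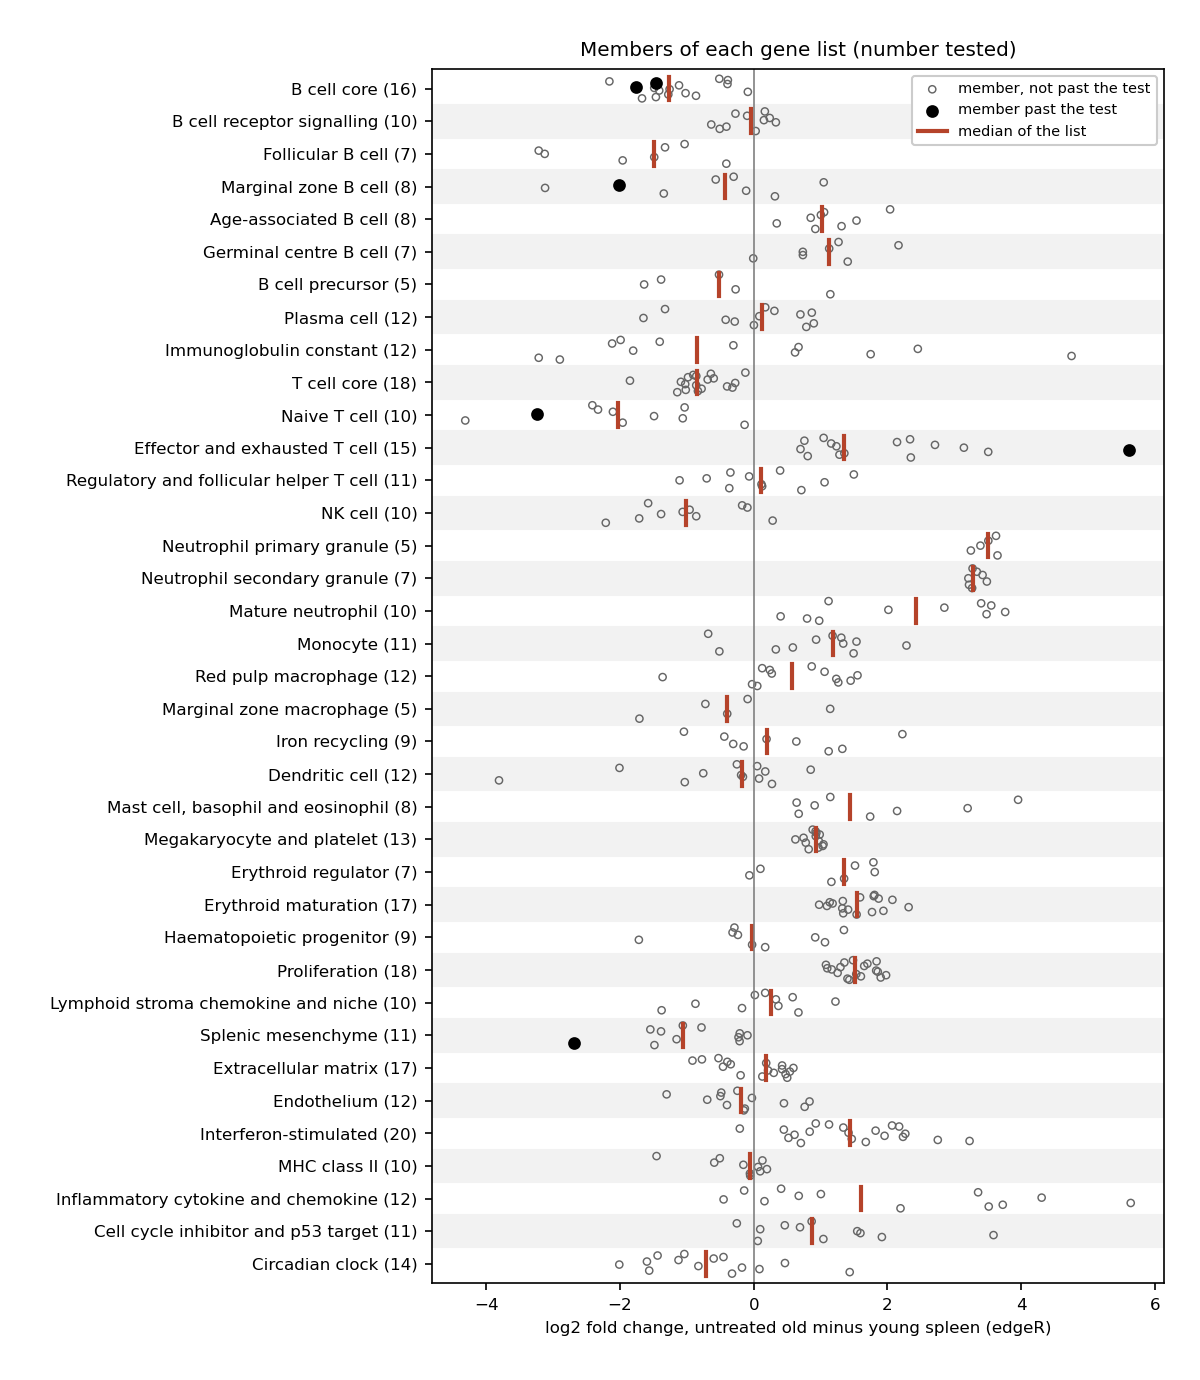
Log2 fold changes (untreated old minus young spleen, horizontal axis) of the tested members of each gene list, with list medians as vertical bars and the 6 members past the test as filled points. Naive T, B cell core and follicular B lists lie left of 0, and the neutrophil lists lie right of 0 with no member past the test.

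Genes that define B cells were lower in old spleens. Pax5, the transcription factor that holds B cells to their lineage (chr4:44524757-44710487, GRCm38), fell: it was at 198, 174 and 172 CPM in the old libraries and 501, 580.2, 459 and 448 CPM in the young libraries (log2 fold change -1.46 ± 0.16, adjusted p = 0.0234; ± is the standard error throughout). Ebf1, which acts with Pax5 early in the lineage (chr11:44617317-45008091), was at 31.1, 35.2 and 27.8 CPM in the old libraries and 104, 121, 92.9 and 97.02 CPM in the young libraries (log2 fold change -1.76 ± 0.15, adjusted p = 0.0215), and had the smallest adjusted p of any gene. For both genes every old library lay below every young one. These were the 2 called members of the 16 core B cell genes; 12 of the 16 lay lower without overlap and 0 higher, against shares of 19.8% and 15.4% over all genes, and the list's median log2 fold change was -1.27. With the 7 untreated libraries alone, 12 of the 16 passed the test, all lower. As the list was chosen with earlier results known, these counts are a description and not a test.

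Among core members that did not pass, the antigen receptor's signalling chain Cd79a was at 126, 287 and 172 CPM in the old libraries and 534, 577, 455 and 482 CPM in the young libraries (log2 fold change -1.41 ± 0.35, adjusted p = 0.078). Its partner Cd79b was at 323, 398 and 275 CPM in the old libraries and 841, 880.1, 704 and 726 CPM in the young libraries (log2 fold change -1.26 ± 0.36, adjusted p = 0.0918). Ralgps2, an exchange factor for Ral GTPases, had the most negative fold change of the list (51.9, 97.4 and 72.1 CPM in the old libraries and 356, 361, 281 and 293 CPM in the young libraries; log2 fold change -2.16 ± 0.58, adjusted p = 0.0843). Ms4a1, which encodes CD20, overlapped between groups because of old library 2 (286, 809 and 355 CPM in the old libraries and 628, 698, 568 and 642 CPM in the young libraries). Cxcr5, which guides B cells into follicles, was at 66.1 to 129 CPM in old and 279.7 to 315 CPM in young spleens (log2 fold change -1.49 ± 0.30, adjusted p = 0.0608). Bach2, a repressor that delays plasma cell differentiation, was at 26.4 to 54.7 CPM in old and 109 to 161 CPM in young spleens (log2 fold change -1.67 ± 0.30, adjusted p = 0.0561). The summed level of the core list was 2982, 3733 and 2632 CPM in the old libraries and 6558, 7101, 5743 and 5882 CPM in the young libraries.

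Of 10 genes that signal downstream of the antigen receptor, 0 passed the test, 3 lay lower and 1 higher without overlap, and the median was -0.03 (0.10 without old library 3). The adaptor Blnk was at 114 to 148 CPM in old and 167 to 192 CPM in young spleens (log2 fold change -0.51 ± 0.16, adjusted p = 0.11), and the kinase Syk overlapped at 585 to 1003 CPM in old and 844 to 968 CPM in young spleens. Many of these genes are also active in myeloid cells.

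**Figure D2:**
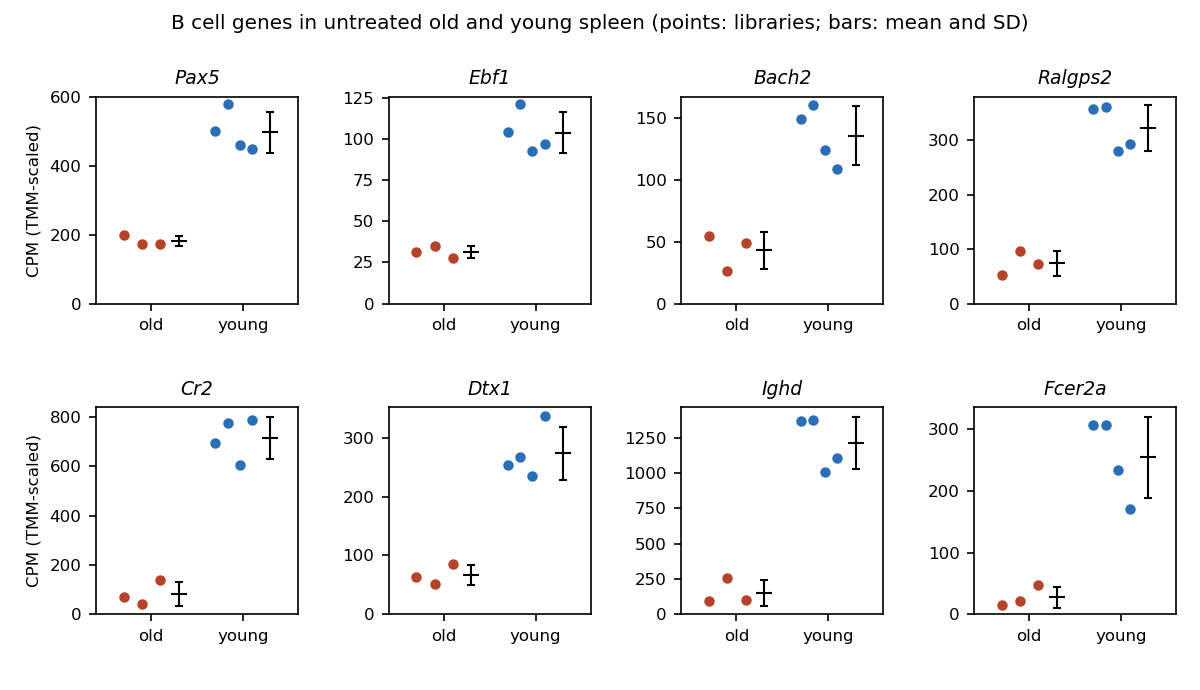
Levels (CPM, TMM-scaled, vertical axis from 0) of 8 B cell genes in the 3 old and 4 young spleen libraries, with the mean and SD beside the points. In each panel all old points lie below all young points; Pax5, Ebf1 and Dtx1 passed the test.

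Of 7 genes of resting follicular B cells, 0 passed the test, 6 lay lower in old spleens without overlap, and the median was -1.49; 6 passed with the 7 untreated libraries. Ighd encodes the heavy chain of IgD, which marks naive B cells. It was at 92.9, 258 and 99.5 CPM in the old libraries and 1370.0, 1376, 1009.9 and 1111 CPM in the young libraries (log2 fold change -3.22 ± 1.14, adjusted p = 0.126). Fcer2a, the low-affinity IgE receptor CD23, was at 14.4, 21.6 and 46.9 CPM in the old libraries and 307, 308, 234 and 170.5 CPM in the young libraries (log2 fold change -3.13 ± 0.96, adjusted p = 0.0997). Each old library lay well under every young one for both genes. The homing receptor gene Ccr7, which T cells also use, was at 45.3 to 78.7 CPM in old and 228 to 251 CPM in young spleens, and Klf2, which keeps lymphocytes quiescent, was at 54.5 to 120.1 CPM in old and 200.3 to 244 CPM in young spleens.

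In the marginal zone B cell list, Dtx1 fell. Dtx1, a regulator and target of the Notch pathway (chr5:120680202-120711927), was at 63.6, 51.3 and 85.4 CPM in the old libraries and 254, 268, 235 and 338 CPM in the young libraries (log2 fold change -2.02 ± 0.23, adjusted p = 0.0342). The other 7 members did not pass. Cr2, the complement receptor of marginal zone and follicular B cells, was at 70.3, 40.3 and 137 CPM in the old libraries and 692, 776, 604 and 789 CPM in the young libraries (log2 fold change -3.12 ± 0.50, adjusted p = 0.0517), and the groups were far apart. The lipid-presenting Cd1d1 was at 10.7 to 28.1 CPM in old and 39.9 to 66.5 CPM in young spleens (log2 fold change -1.34 ± 0.61, adjusted p = 0.188). S1pr3 overlapped at 53.4 to 109.7 CPM in old and 94.5 to 112 CPM in young spleens. In all, 4 of 8 lay lower and 0 higher without overlap, with a median of -0.43 (-0.81 without old library 2). Fold changes were negative for 6 and positive for 2 (range -3.12 to 1.05). The summed level was 1001, 1001 and 1023 CPM in the old libraries and 1852, 1983, 1738 and 2136 CPM in the young libraries.

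Genes associated with B cells that accumulate in aged mice gave no call among 8. All 8 fold changes were positive (median 1.03), but only Zbtb32 and Itgam lay higher without overlap, and the median was 0.15 without old library 1. Tbx21, the defining transcription factor T-bet, was at 113, 14.7 and 25.8 CPM in the old libraries and 25.7, 23.1, 23.1 and 17.1 CPM in the young libraries (log2 fold change 1.05 ± 0.57, adjusted p = 0.25). Itgax, which encodes CD11c, was at 453, 129 and 279 CPM in the old libraries and 141, 148, 189.8 and 144 CPM in the young libraries. Both were highest in old library 1, and old library 2 lay under every young library. The log2 fold change of Tbx21 was -0.14 without old library 1. T cells, NK cells and myeloid cells use several of these genes. Zbtb32 was at 13.2 to 57.4 CPM in old and 5.69 to 11.6 CPM in young spleens (log2 fold change 2.04 ± 1.03, adjusted p = 0.223).

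Germinal centre genes were high in 1 old library. S1pr2, which confines germinal centre cells, was at 46.95, 15.1 and 121 CPM in the old libraries and 39.5, 22.1, 31.9 and 11.7 CPM in the young libraries (log2 fold change 1.27 ± 1.14, adjusted p = 0.474). Old libraries 1 and 3 were above all young libraries, and old library 2 was below all but young library 4. Without old library 3 its log2 fold change was -0.65. None of the 7 tested members passed or was free of overlap. The list's median of 1.13 became -1.20 without old library 3. Of 8 genes of early B cell precursors 3 were under the filter on low counts. Of the 5 tested, 0 passed, 1 lay lower without overlap, 4 had negative fold changes and 1 a positive one (range -1.64 to 1.15, median -0.52). Dntt, which adds bases at antibody gene joints, was at 0.641 to 2.48 CPM in old and 3.82 to 6.35 CPM in young spleens (log2 fold change -1.64 ± 0.58, adjusted p = 0.127), and Rag1, which cuts the antibody genes, was at 0.151 to 0.978 CPM in old and 0.484 to 1.93 CPM in young spleens.

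Plasma cell genes gave no uniform picture. Of 12 genes 0 passed, 2 lay lower and 1 higher without overlap, and the median was 0.13 (-0.21 without old library 3). Jchain, the joining chain of secreted IgM and IgA, was at 429.9, 908 and 2227 CPM in the old libraries and 3716, 3364, 2825 and 4937 CPM in the young libraries (log2 fold change -1.65 ± 0.86, adjusted p = 0.234). It was lower in every old library than in any young one. Prdm1, the factor that drives plasma cell fate, overlapped at 23.7 to 66.1 CPM in old and 21.7 to 36.4 CPM in young spleens. Sdc1, a surface marker of plasma cells, was at 131, 22.2 and 32.3 CPM in the old libraries and 30.5, 27.2, 25.3 and 24.5 CPM in the young libraries, with old library 1 far above the other libraries. Xbp1, which prepares cells for secretion, was at 263 to 421 CPM in old and 251 to 323 CPM in young spleens (log2 fold change 0.17 ± 0.31, adjusted p = 0.732).

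The immunoglobulin constant genes, the products of these cells, differed by class. Igha, the heavy chain of IgA, was at 499, 614 and 5701 CPM in the old libraries and 13658, 12738, 10265 and 21412 CPM in the young libraries (log2 fold change -2.90 ± 1.53, adjusted p = 0.239), lower in each old library. Ighm overlapped widely, at 2065, 15898 and 23592 CPM in the old libraries and 10181, 7951, 10152 and 6101 CPM in the young libraries. Ighg3 was at 9297, 276 and 316 CPM in the old libraries and 546, 329, 297 and 431 CPM in the young libraries, so that old library 1 stood alone, and its log2 fold change of 2.45 became -0.41 without that library. Ighe was at 41.99, 2.51 and 199 CPM in the old libraries and 3.29, 1.32, 1.74 and 3.09 CPM in the young libraries (log2 fold change 4.75 ± 1.04, adjusted p = 0.0704), with 2 old libraries above the young range. The 3 lambda light chain genes Iglc1, Iglc2 and Iglc3 lay lower without overlap. Igkc was at 5706 to 29169 CPM in old and 14763 to 21783 CPM in young spleens. Over the 12 genes 0 passed, 6 lay lower without overlap, and the median was -0.85. It was -1.95 without old library 3 and -0.55 without old library 2. Their sum was 19105, 26566 and 65251 CPM in the old libraries and 47863, 40126, 41122 and 53969 CPM in the young libraries.

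The use of variable segments was concentrated in old spleens. In each library 113 heavy-chain and 100 kappa-chain segments were counted. The most counted heavy-chain segment took 76.3% of segment counts in old library 1 (Ighv1-78; 95% Wilson interval 75.7% to 76.9%). It took 20.1% in old library 2 (Ighv2-3; 19.7% to 20.6%) and 30.8% in old library 3 (Ighv5-9-1; 30.5% to 31.2%). In young libraries the leading segment took 4.91% to 6.68%, with interval bounds from 4.73% to 6.91%. Kappa-chain counts were led by Igkv4-57-1 at 47.1% in old library 1 (46.6% to 47.7%) and by Igkv5-39 at 63.8% (63.5% to 64.2%) and 36.6% (36.4% to 36.8%) in old libraries 2 and 3. The young kappa shares were 5.35% to 8.62%, with bounds from 5.21% to 8.81%.

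Means of the leading share were 42.4% ± 29.8 in old and 5.72% ± 0.746 in young spleens for heavy chains, and 49.2% ± 13.7 in old and 6.31% ± 1.55 in young spleens for kappa chains (SD, n = 3 and 4). Every old library was above every young one for both chains. An exact two-sided permutation test over the 35 splits gave p = 0.0571 for each chain, which is the smallest p that 3 against 4 libraries allow. Segments with over 1% of heavy-chain counts numbered 3, 20 and 16 in old libraries and 33 to 37 in young libraries. The intervals cover counting error only. Segments share sequence, and how reads matching several were counted is not given in the sources used here, so the name of a leading segment is less certain than the concentration of counts. Igkv5-39 led in 2 old libraries.

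**Figure D3:**
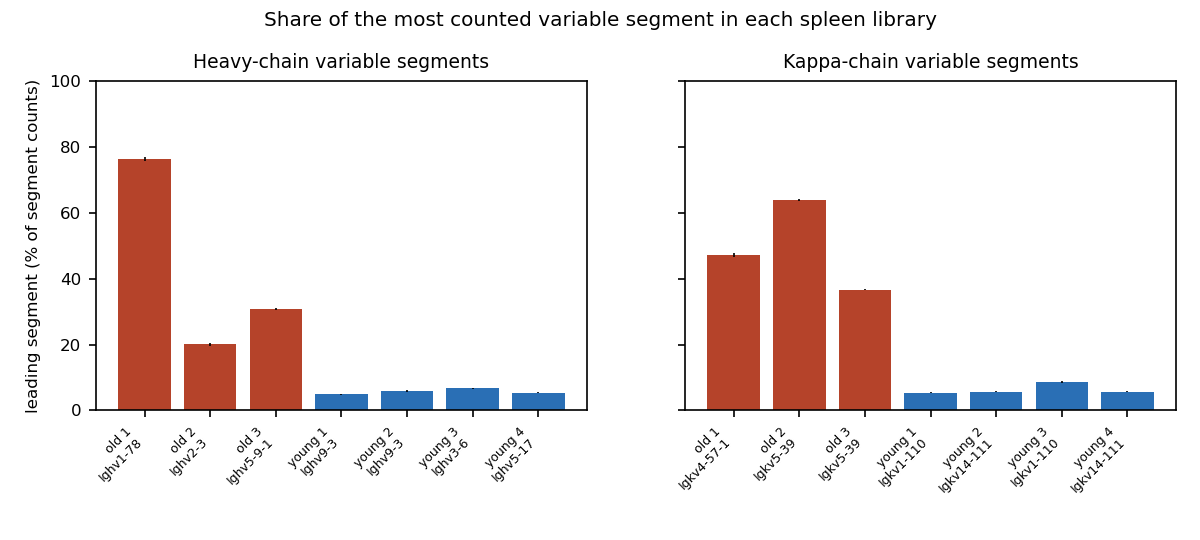
Share of the most counted immunoglobulin variable segment (percent of all counts on segments of that chain, vertical axis) in each old and young spleen library, with 95% Wilson intervals. Bars of the 3 old libraries range from 20.1% to 76.3%, and those of the 4 young libraries from 4.91% to 8.62%.

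Naive T cell genes were lower and effector T cell genes were higher in old spleens. Lef1, a transcription factor of naive T cells (chr3:131110471-131224356), fell: it was at 7.45, 12.9 and 10.7 CPM in the old libraries and 92.95, 106, 85.3 and 104 CPM in the young libraries (log2 fold change -3.24 ± 0.49, adjusted p = 0.0475). Gzmk, a granule protease of CD8 T cells (chr13:113171608-113225908), rose, and was at 96.9, 67.3 and 42.8 CPM in the old libraries and 1.61, 1.18, 3.11 and 0.744 CPM in the young libraries (log2 fold change 5.61 ± 0.71, adjusted p = 0.0388). Gzmk had the largest fold change of any called list member. Trat1, an adaptor that associates with the T cell receptor (chr16:48730774-48772021), also fell, at 1.62, 1.19 and 1.59 CPM in the old libraries and 5.25, 6.68, 7.78 and 7.82 CPM in the young libraries (log2 fold change -2.17 ± 0.30, adjusted p = 0.0423).

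Of 10 naive T cell genes 1 passed, 9 lay lower without overlap, and the median was -2.03; 9 passed with the 7 untreated libraries. Tcf7, which encodes TCF-1 and acts with Lef1, was at 24.96, 54.9 and 94.4 CPM in the old libraries and 326, 305, 292 and 291 CPM in the young libraries (log2 fold change -2.41 ± 0.52, adjusted p = 0.0674). Satb1, a chromatin organiser, was at 40.004, 31.9 and 51.9 CPM in the old libraries and 205, 212, 177 and 244 CPM in the young libraries (log2 fold change -2.33 ± 0.50, adjusted p = 0.0663). S1pr1, the receptor that lets T cells leave lymphoid organs, was at 40.5 to 93.3 CPM in old and 288 to 341 CPM in young spleens (log2 fold change -2.11 ± 0.65, adjusted p = 0.0994). The survival receptor gene Il7r was at 35.1, 41.3 and 97.8 CPM in the old libraries and 125, 133, 135 and 295 CPM in the young libraries, where young library 4 was above every other library. Dapl1 had no count in old library 1, and was at 0, 1.29 and 3.56 CPM in the old libraries and 28.7, 27.1, 25.5 and 30.3 CPM in the young libraries. Actn1 overlapped.

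Of 15 effector and exhaustion genes 1 passed, 12 lay higher without overlap, and the median was 1.36; 10 passed with the 7 untreated libraries. Gzmb, another granule protease, was at 93.9, 61.4 and 35.4 CPM in the old libraries and 5.57, 6.72, 6.11 and 6.48 CPM in the young libraries (log2 fold change 3.51 ± 0.72, adjusted p = 0.0641). The chemokine gene Ccl5 was at 752, 293 and 315 CPM in the old libraries and 104, 97.3, 88.5 and 92.2 CPM in the young libraries (log2 fold change 2.35 ± 0.57, adjusted p = 0.0751). Pdcd1, which encodes the inhibitory receptor PD-1, was at 60.4, 30.4 and 77.7 CPM in the old libraries and 14.3, 10.5, 19.2 and 7.15 CPM in the young libraries (log2 fold change 2.14 ± 0.47, adjusted p = 0.0689). The inhibitory receptor genes Lag3 and Tigit were at 65.8 to 385 CPM in old and 22.2 to 36.7 CPM in young spleens and at 12.5 to 48.6 CPM in old and 4.47 to 7.999 CPM in young spleens. Eomes, a transcription factor of effector and memory cells, was at 39.3 to 64.2 CPM in old and 21.8 to 24.5 CPM in young spleens (log2 fold change 1.28 ± 0.55, adjusted p = 0.168), and the exhaustion factor Tox was at 26.3 to 40.996 CPM in old and 15.5 to 18.2 CPM in young spleens. Ifng was at 25.3, 3.94 and 3.97 CPM in the old libraries and 1.4998, 1.22, 0.926 and 0.6699 CPM in the young libraries, highest in old library 1. The pore-forming Prf1 overlapped, with old library 1 apart at 106 CPM.

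Genes of the T cell receptor complex and its signalling gave no call. Of 18 core T cell genes 0 passed, 14 lay lower without overlap, and the median was -0.85. Cd3d was at 39.03 to 74.1 CPM in old and 86.6 to 102 CPM in young spleens (log2 fold change -0.78 ± 0.33, adjusted p = 0.17), while Cd3e overlapped at 42.3 to 83.96 CPM in old and 83.5 to 89.6 CPM in young spleens (log2 fold change -0.32 ± 0.21, adjusted p = 0.339). The constant region Trac was at 31.1 to 64.1 CPM in old and 76.3 to 93.5 CPM in young spleens (log2 fold change -0.86 ± 0.22, adjusted p = 0.0812). Cd8b1, which pairs with Cd8a on conventional CD8 T cells, was at 42.5, 44.9 and 58.6 CPM in the old libraries and 102, 111, 91.7 and 124 CPM in the young libraries (log2 fold change -1.09 ± 0.48, adjusted p = 0.179), while Cd8a, which some dendritic cells also express, was at 219, 61.4 and 102 CPM in the old libraries and 154, 159.7, 142 and 180.3 CPM in the young libraries. Cd4 was at 51.4 to 158 CPM in old and 192 to 218 CPM in young spleens.

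**Figure D4:**
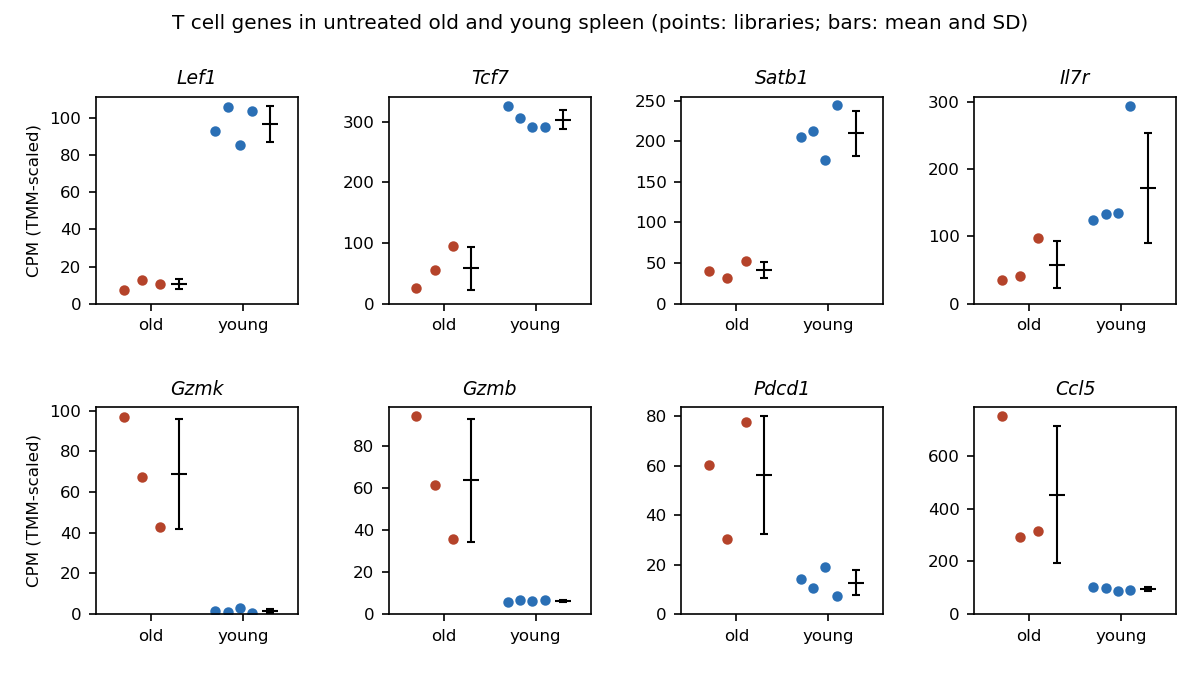
Levels (CPM, TMM-scaled, vertical axis from 0) of 4 naive and 4 effector T cell genes in the 3 old and 4 young spleen libraries, with the mean and SD beside the points. The naive genes in the upper row are lower in every old library and the effector genes in the lower row are higher; Lef1 and Gzmk passed the test.

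Regulatory and follicular helper T cell genes showed no common direction, with 0 of 11 called and a median of 0.12 (-0.62 without old library 3). Foxp3, the factor of regulatory T cells, was at 7.52, 11.02 and 27.8 CPM in the old libraries and 20.4, 19.98, 21.97 and 16.2 CPM in the young libraries (log2 fold change -0.36 ± 0.48, adjusted p = 0.629). The inhibitory receptor gene Ctla4 lay higher at 21.6 to 34.7 CPM in old and 15.5 to 21.4 CPM in young spleens (log2 fold change 0.71 ± 0.23, adjusted p = 0.108) and the interleukin 2 receptor Il2ra lay lower at 5.198 to 15.3 CPM in old and 19.6 to 22.3 CPM in young spleens (log2 fold change -1.11 ± 0.35, adjusted p = 0.103). NK cell genes were lower in 6 of 10 without overlap, with 0 called and a median of -1.01. The activating receptor Ncr1 was at 2.93, 5.97 and 9.76 CPM in the old libraries and 19.3, 17.5, 16.9 and 20.5 CPM in the young libraries (log2 fold change -1.58 ± 0.41, adjusted p = 0.0832). Gzma, a protease of NK cells and some T cells, was at 3.71, 13.9 and 8.06 CPM in the old libraries and 44.2, 40.4, 32.2 and 44.6 CPM in the young libraries (log2 fold change -2.21 ± 0.57, adjusted p = 0.0799), in the direction opposite to Gzmk and Gzmb. Klrc3, an NK receptor gene outside the list, fell, at a low level (0.135 to 0.227 CPM in old and 1.297 to 1.79 CPM in young spleens; log2 fold change -3.07 ± 0.43, adjusted p = 0.0423). NK receptor genes are a family of close copies, so their counts are uncertain.

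Neutrophil genes had high list medians, and none passed the test. The 5 primary granule genes, made in early precursors, had a median log2 fold change of 3.51. The 7 secondary granule genes had a median of 3.27, and the 10 genes of mature neutrophils 2.43. All 5, all 7 and 7 of the 10 lay higher without overlap, and 5, 7 and 8 passed with the 7 untreated libraries. Elane, neutrophil elastase, was at 37.04, 43.8 and 344 CPM in the old libraries and 9.53, 10.3, 24.3 and 6.51 CPM in the young libraries (log2 fold change 3.25 ± 0.94, adjusted p = 0.0914). Mpo, myeloperoxidase, was at 96.3, 94.5 and 764 CPM in the old libraries and 19.7, 22.8, 46.2 and 15.6 CPM in the young libraries. Old library 3 was several times higher than the other old libraries, and these in turn were above every young library.

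Among secondary granule genes Ngp was at 368, 241 and 2787 CPM in the old libraries and 66.7, 71.6, 176 and 77.9 CPM in the young libraries (log2 fold change 3.27 ± 0.90, adjusted p = 0.0873), and the iron-binding Ltf was at 140.1 to 1541 CPM in old and 35.6 to 95.6 CPM in young spleens. Camp, an antimicrobial peptide gene, was at 92.1 to 868 CPM in old and 22.9 to 58.05 CPM in young spleens (log2 fold change 3.27 ± 0.88, adjusted p = 0.0843). S100a8, one partner of calprotectin, was at 462, 568 and 2337 CPM in the old libraries and 74.5, 74.9, 133 and 78.6 CPM in the young libraries (log2 fold change 3.55 ± 0.68, adjusted p = 0.0569), and its partner S100a9 was at 709 to 3689.8 CPM in old and 128 to 232 CPM in young spleens. Mmp8, neutrophil collagenase, had the smallest adjusted p of these lists, at 42.8, 49.4 and 137 CPM in the old libraries and 4.29, 5.31, 6.96 and 5.73 CPM in the young libraries (log2 fold change 3.76 ± 0.61, adjusted p = 0.0531). The chemokine receptor Cxcr2, which mature neutrophils use to enter blood, overlapped at 16.3, 37.3 and 60.3 CPM in the old libraries and 21.6, 20.5, 22.1 and 23.04 CPM in the young libraries. Without old library 3 the medians were 2.03 for primary granule, 1.90 for secondary granule and 1.39 for mature neutrophil genes.

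Some called genes outside the lists that rose are known to be expressed in neutrophils or monocytes. They were put side by side after their values were seen, so no count of them is evidence. C5ar1, the receptor for complement C5a (chr7:16246743-16259540), was at 22.4, 25.99 and 29.3 CPM in the old libraries and 5.36, 3.86, 4.93 and 5.99 CPM in the young libraries (log2 fold change 2.40 ± 0.24, adjusted p = 0.0234). Il1r2, a decoy receptor for interleukin 1 (chr1:40074079-40125231), was at 41.6, 16.95 and 44.6 CPM in the old libraries and 2.68, 3.29, 2.89 and 6.25 CPM in the young libraries (log2 fold change 3.24 ± 0.49, adjusted p = 0.0475). Fpr1, the receptor for formylated bacterial peptides, was at 27.8 to 50.3 CPM in old and 11.1 to 15.6 CPM in young spleens (log2 fold change 1.66 ± 0.25, adjusted p = 0.0475). Lilr4b, an inhibitory receptor of myeloid cells (chr10:51480632-51486703), was at 58.8, 42.3 and 47.1 CPM in the old libraries and 9.68, 6.77, 13.7 and 6.07 CPM in the young libraries (log2 fold change 2.49 ± 0.32, adjusted p = 0.0388). Vcan, the matrix proteoglycan versican, which monocytes also make (chr13:89655312-89742509), was at 12.9, 38.4 and 24.96 CPM in the old libraries and 4.07, 2.73, 4.704 and 3.498 CPM in the young libraries (log2 fold change 2.74 ± 0.40, adjusted p = 0.0466). C5ar1 and Lilr4b were nearly level across the 3 old libraries, while Il1r2 and Vcan were not. The test favours genes with little spread within a group, so this is no contrast with the granule genes.

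Monocyte genes were higher in 6 of 11 without overlap, with 0 called and a median of 1.18. Ly6c2, a marker of inflammatory monocytes, overlapped at 83.4, 54.6 and 204 CPM in the old libraries and 56.5, 53.7, 58.9 and 54.6 CPM in the young libraries, while Ccr2, their chemokine receptor, did not (147, 179 and 206 CPM in the old libraries and 73.5, 69.2, 54.01 and 59.8 CPM in the young libraries; log2 fold change 1.49 ± 0.36, adjusted p = 0.0739). F13a1, a coagulation factor gene of monocytes, was at 33.7 to 157 CPM in old and 12.1 to 24.2 CPM in young spleens (log2 fold change 2.29 ± 0.53, adjusted p = 0.072). Csf1r, the receptor that macrophages and monocytes need, was at 917 to 1061 CPM in old and 685 to 966 CPM in young spleens (log2 fold change 0.33 ± 0.17, adjusted p = 0.236). Lyz2, lysozyme, was at 8333, 2470.5 and 4878 CPM in the old libraries and 2312, 2040.2, 2038 and 1911 CPM in the young libraries.

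Red pulp macrophage genes were mixed. Spic, the factor that defines these cells, overlapped (116, 136 and 109 CPM in the old libraries and 106, 94.8, 95.3 and 109 CPM in the young libraries; log2 fold change 0.24 ± 0.27, adjusted p = 0.573), as did Adgre1, which encodes F4/80 (94.2 to 192 CPM in old and 127 to 167 CPM in young spleens; log2 fold change 0.05 ± 0.33, adjusted p = 0.925). The complement genes C1qa, C1qb and C1qc lay higher, with C1qb at 1570.4, 751 and 716 CPM in the old libraries and 331, 308, 399 and 405 CPM in the young libraries (log2 fold change 1.45 ± 0.39, adjusted p = 0.0855). Cd5l, a secreted scavenger protein, was at 499.9, 647 and 249 CPM in the old libraries and 144, 145, 196 and 169 CPM in the young libraries (log2 fold change 1.55 ± 0.36, adjusted p = 0.072). Cd163, the haemoglobin scavenger receptor, lay lower at 26.4, 26.3 and 21.5 CPM in the old libraries and 44.7, 65.8, 40.6 and 102 CPM in the young libraries (log2 fold change -1.36 ± 0.66, adjusted p = 0.207). Vcam1, an adhesion molecule, was at 919 to 2014 CPM in old and 647 to 1151 CPM in young spleens. Over the 12 members 0 passed, 5 lay higher and 1 lower without overlap, and the median was 0.57.

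Marginal zone macrophage genes were few and variable. Of the 5, 1 lay higher and 1 lower without overlap. Fold changes were negative for 4 and positive for 1 (range -1.71 to 1.14, median -0.40). With the 7 untreated libraries 1 passed, higher in old spleens. Marco, a scavenger receptor, was at 52.3, 309 and 99.8 CPM in the old libraries and 188, 206, 189 and 246 CPM in the young libraries. Cd209b, a lectin of these cells also called SIGN-R1, was at 0.2698, 30.4 and 14.1 CPM in the old libraries and 44.03, 56.5, 35.3 and 62.8 CPM in the young libraries (log2 fold change -1.71 ± 1.43, adjusted p = 0.441). Old library 1 had under 1 CPM of Cd209b, and every young library had 35.3 CPM or more. Siglec1 was at 18.99 to 91.3 CPM in old and 81.4 to 105 CPM in young spleens. Among iron genes, Slc40a1, the iron exporter ferroportin, was at 325 to 604 CPM in old and 537 to 736 CPM in young spleens (log2 fold change -0.44 ± 0.42, adjusted p = 0.495). Hmox1, which opens haem, was at 463 to 536 CPM in old and 606 to 669 CPM in young spleens (log2 fold change -0.31 ± 0.30, adjusted p = 0.509). The ferritin heavy chain Fth1 was at 4961, 1605 and 1403 CPM in the old libraries and 944, 952, 1063 and 978 CPM in the young libraries (log2 fold change 1.33 ± 0.42, adjusted p = 0.103), and the iron carrier Trf lay lower at 25.3 to 40.6 CPM in old and 54.8 to 83.7 CPM in young spleens. None of the 5 marginal zone macrophage genes and none of the 9 tested iron genes passed.

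Dendritic cell genes gave 0 calls among 12, and 4 lay lower without overlap. Of the 12 fold changes 7 were negative and 5 positive, with a median of -0.17. Cd209a, a lectin of conventional type 2 and monocyte-derived dendritic cells, was at 0.8095, 1.12 and 3.71 CPM in the old libraries and 24.5, 28.7, 16.3 and 33.9 CPM in the young libraries (log2 fold change -3.81 ± 1.09, adjusted p = 0.0908). Siglech, a marker of plasmacytoid dendritic cells, was at 4.79, 19.9 and 23.5 CPM in the old libraries and 60.96, 65.1, 51.4 and 83.1 CPM in the young libraries (log2 fold change -2.01 ± 0.71, adjusted p = 0.126). The growth factor receptor Flt3 was at 20.3 to 62.02 CPM in old and 52.8 to 71.1 CPM in young spleens. Genes of basophils and mast cells were high in old library 3. Mcpt8, a basophil protease, was at 4.18, 2.72 and 45.8 CPM in the old libraries and 1.93, 1.27, 1.19 and 0.9304 CPM in the young libraries (log2 fold change 3.20 ± 0.95, adjusted p = 0.0943), and Prss34, another, was at 8.03, 3.73 and 85.2 CPM in the old libraries and 1.39, 1.13, 2.15 and 0.968 CPM in the young libraries (log2 fold change 3.95 ± 1.01, adjusted p = 0.08). The mast cell protease Cpa3 was at 2.39 to 16.9 CPM in old and 1.34 to 3.57 CPM in young spleens. None of the 8 passed, and the list median of 1.44 became 0.37 without old library 3.

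Red cell genes overlapped between the groups for every member tested. Summed levels of regulator and of maturation genes were highest in old library 2 and lowest in young library 4. Young library 3 was the highest young library. Old library 1 was the lowest old library, but lay above young libraries 1 and 4. None of the 7 regulator genes and none of the 17 maturation genes passed or was free of overlap, although the medians were 1.35 and 1.54. Gata1, the master factor of the lineage, was at 29.6, 156 and 60.5 CPM in the old libraries and 14.7, 29.7, 97.9 and 10.1 CPM in the young libraries (log2 fold change 1.35 ± 0.99, adjusted p = 0.382). Klf1, which switches on adult globin, was at 44.9, 311 and 73.03 CPM in the old libraries and 15.2, 39.4, 147 and 7.55 CPM in the young libraries (log2 fold change 1.81 ± 1.27, adjusted p = 0.36). Alas2, which starts haem synthesis in red cells, was at 261, 1555 and 722 CPM in the old libraries and 166, 349.9, 573 and 130.1 CPM in the young libraries (log2 fold change 1.54 ± 0.66, adjusted p = 0.168). The adult beta globin gene Hbb-bs was at 2638, 13573 and 9248 CPM in the old libraries and 2339, 4704, 6409 and 1967 CPM in the young libraries. Globin copies are near-identical, and reads may be shared among them. The medians for regulators and maturation genes were 0.31 and 0.45 without old library 2, 0.06 and 0.23 without old library 2 and young library 1, and 2.14 and 2.34 without young library 3.

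Proliferation genes, like red cell genes, had their highest sum in old library 2. All 18 had positive fold changes (median 1.51, and 0.92 without old library 2 and young library 1), 8 lay higher without overlap and 0 passed. Mki67, a marker of cycling cells, was at 926, 2879 and 965 CPM in the old libraries and 320.1, 423, 1098 and 129 CPM in the young libraries (log2 fold change 1.65 ± 0.94, adjusted p = 0.27). Top2a, a DNA topoisomerase of dividing cells, was at 568, 1263 and 529 CPM in the old libraries and 178, 183, 409 and 81.4 CPM in the young libraries (log2 fold change 1.84 ± 0.73, adjusted p = 0.15), and Cdk1, the kinase of mitosis, was at 133 to 321 CPM in old and 16.7 to 109 CPM in young spleens. The highest libraries for Mki67 were old library 2 and young library 3, as for Klf1. The summed level of erythroid maturation genes was 6321, 34997 and 20037 CPM in the old libraries and 4738, 10083, 16738 and 3799 CPM in the young libraries, and its part in the proliferation values was not tested.

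Platelet and megakaryocyte genes stood out in 1 library. Itga2b, the platelet integrin chain, was at 47.2, 58.3 and 233 CPM in the old libraries and 52.6, 56.6, 55.5 and 49.3 CPM in the young libraries (log2 fold change 0.97 ± 0.54, adjusted p = 0.257), and Pf4, platelet factor 4, was at 34.3, 38.7 and 179.9 CPM in the old libraries and 43.2, 41.7, 39.97 and 37.8 CPM in the young libraries. Old library 3 was above all others, and old libraries 1 and 2 lay within or near the young range. All 13 fold changes were positive with a median of 0.93, which became -0.16 without old library 3, as did the log2 fold change of Itga2b. Clec1b alone was free of overlap (26.98 to 48.4 CPM in old and 17.04 to 20.8 CPM in young spleens; log2 fold change 0.82 ± 0.24, adjusted p = 0.0943). Stem and progenitor genes gave 0 calls among 9. Of their fold changes 5 were negative and 4 positive (range -1.72 to 1.35, median -0.02). Hlf, a transcription factor of stem cells, lay lower at 1.89, 3.49 and 5.03 CPM in the old libraries and 9.46, 11.2, 7.41 and 18.5 CPM in the young libraries (log2 fold change -1.72 ± 0.48, adjusted p = 0.0886), while Meis1 overlapped at 10.5 to 17.3 CPM in old and 14.3 to 19.7 CPM in young spleens.

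Of 11 genes of the splenic mesenchyme list, 1 fell. Cnn1, calponin of smooth muscle (chr9:22099216-22109630), was at 1.28, 1.78 and 1.89 CPM in the old libraries and 10.4, 10.3, 8.04 and 14.6 CPM in the young libraries (log2 fold change -2.68 ± 0.42, adjusted p = 0.0495). Acta2, smooth muscle actin, was at 61.4, 53.4 and 39.9 CPM in the old libraries and 149, 136, 108 and 183 CPM in the young libraries (log2 fold change -1.48 ± 0.38, adjusted p = 0.08), and Tagln was at 8.702 to 12.4 CPM in old and 19.7 to 35.1 CPM in young spleens (log2 fold change -1.39 ± 0.42, adjusted p = 0.0971). Tcf21, a transcription factor of spleen mesenchyme, was at 25.6, 26.9 and 32.9 CPM in the old libraries and 80.99, 89.6, 60.2 and 102 CPM in the young libraries (log2 fold change -1.55 ± 0.53, adjusted p = 0.119), and Tlx1, which the spleen needs to form, was at 14.2 to 27.04 CPM in old and 31.3 to 41.9 CPM in young spleens (log2 fold change -0.78 ± 0.44, adjusted p = 0.264). Pdgfrb, a broad stromal receptor, overlapped at 57.4 to 73.1 CPM in old and 64.5 to 82.8 CPM in young spleens. In the list all 11 fold changes were negative, 7 lay lower without overlap, and the median was -1.06.

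Of 17 matrix genes none passed, 1 lay higher and 1 lower without overlap, and the median was 0.19 (-0.065 without old library 2). The fibrillar collagen Col1a1 was at 89.5, 114 and 87.7 CPM in the old libraries and 85.6, 65.97, 72.2 and 43.8 CPM in the young libraries (log2 fold change 0.50 ± 0.29, adjusted p = 0.271), and Col3a1 overlapped at 61.8 to 179.6 CPM in old and 101 to 199 CPM in young spleens. Sparc, a matrix-binding glycoprotein, lay lower at 335 to 526 CPM in old and 533 to 653 CPM in young spleens (log2 fold change -0.53 ± 0.20, adjusted p = 0.14). Of the stromal chemokines, Cxcl12, which retains lymphocytes and progenitors, was at 284, 242 and 403 CPM in the old libraries and 752, 703, 549 and 1273 CPM in the young libraries (log2 fold change -1.38 ± 0.59, adjusted p = 0.169), while the B zone chemokine Cxcl13 overlapped at 149 to 238 CPM in old and 174 to 285 CPM in young spleens. Of the 10 tested genes of the stromal chemokine and niche list 0 passed, and 1 lay lower and 0 higher without overlap. Their fold changes were positive for 7 and negative for 3 (range -1.38 to 1.22, median 0.25). Among 12 endothelial genes 0 passed and 5 lay lower without overlap (median -0.20). Stab2, a scavenger receptor of splenic sinuses, was at 78.5, 106 and 126 CPM in the old libraries and 244, 271, 218 and 304 CPM in the young libraries (log2 fold change -1.30 ± 0.33, adjusted p = 0.0799), and Pecam1 was at 148 to 183 CPM in old and 247 to 289.9 CPM in young spleens (log2 fold change -0.70 ± 0.31, adjusted p = 0.177). Cdh5, the junction protein of endothelium in general, overlapped at 51.4 to 91.3 CPM in old and 70.5 to 83.1 CPM in young spleens.

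Interferon-stimulated genes were mostly higher in old spleens, without a call. Of 20 genes 19 had positive fold changes, 9 lay higher without overlap, and the median was 1.44 (0.93 without old library 1); 7 passed with the 7 untreated libraries. Interferons reach these genes through response elements bound by STAT and IRF proteins. Promoters of the list were searched on both strands, from 250 bases before to 50 after the start, for the response element spelled GAAANNGAAACT. It was in 8 of 15 promoters of the 14 genes with an entry, and in 0.271% of 32851 promoters of all genes (RefSeq, GRCm38.p6). For the B cell core list the letters TCCCNNGGGA, as bound by EBF proteins, were in 1 of 13 promoters of 11 genes, that of Cd22, and in 0.904% of all promoters. A match is a description of letters and not a shown binding site. These 3 promoters are shown because their genes are described here, each 5′ to 3′ on the strand of its gene with the matched letters in capitals.
Ifit1 (chr19:34640639-34640938, + strand): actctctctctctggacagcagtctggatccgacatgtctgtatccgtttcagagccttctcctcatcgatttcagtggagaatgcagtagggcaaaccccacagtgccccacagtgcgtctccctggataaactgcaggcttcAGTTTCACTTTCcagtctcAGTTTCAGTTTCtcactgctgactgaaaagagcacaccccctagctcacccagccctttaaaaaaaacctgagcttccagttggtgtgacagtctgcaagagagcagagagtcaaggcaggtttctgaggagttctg
Gbp2 (chr3:142620413-142620712, + strand): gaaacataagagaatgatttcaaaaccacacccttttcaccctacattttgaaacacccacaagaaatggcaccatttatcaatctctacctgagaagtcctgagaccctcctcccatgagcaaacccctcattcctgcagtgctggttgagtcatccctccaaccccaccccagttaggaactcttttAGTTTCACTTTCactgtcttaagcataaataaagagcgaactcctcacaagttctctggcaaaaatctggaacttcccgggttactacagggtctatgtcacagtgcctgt
Cd22 (chr7:30878979-30879278, - strand): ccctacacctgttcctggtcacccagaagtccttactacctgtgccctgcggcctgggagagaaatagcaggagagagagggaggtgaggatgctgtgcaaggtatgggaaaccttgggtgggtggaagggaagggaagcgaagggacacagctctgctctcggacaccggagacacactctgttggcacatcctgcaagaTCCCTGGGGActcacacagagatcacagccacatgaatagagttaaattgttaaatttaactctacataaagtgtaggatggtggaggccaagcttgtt

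Ifit1, an antiviral RNA-binding protein whose promoter held 2 matches, was at 52.5, 51.2 and 43.9 CPM in the old libraries and 9.999, 9.69, 27.7 and 13.7 CPM in the young libraries (log2 fold change 1.96 ± 0.45, adjusted p = 0.072). Gbp2, a guanylate-binding protein that attacks intracellular microbes, was at 1327, 238 and 223 CPM in the old libraries and 97.3, 74.3, 104 and 73.1 CPM in the young libraries (log2 fold change 2.75 ± 0.72, adjusted p = 0.0832). Isg15, a ubiquitin-like modifier, was at 61.7 to 111 CPM in old and 16.9 to 57.1 CPM in young spleens (log2 fold change 1.82 ± 0.57, adjusted p = 0.104), and Oasl2 was at 152, 103 and 138 CPM in the old libraries and 26.6, 21.6, 47.8 and 27.8 CPM in the young libraries (log2 fold change 2.18 ± 0.38, adjusted p = 0.0561). Cxcl9, a chemokine for T cells induced by interferon gamma, was at 1785, 212 and 225 CPM in the old libraries and 88.02, 63.2, 70.5 and 48.6 CPM in the young libraries (log2 fold change 3.23 ± 0.85, adjusted p = 0.0833). Old library 1 was several times above the other old libraries for Gbp2 and Cxcl9, and it was also highest for Ifng, while Ifit1 and Oasl2 were similar in all 3. Cd22, an inhibitory receptor of B cells, was at 209 to 343 CPM in old and 491 to 680.3 CPM in young spleens (log2 fold change -1.02 ± 0.29, adjusted p = 0.0884).

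MHC class II genes were high in old library 1 and low in old library 2. Cd74, the invariant chain, was at 10705, 3965 and 4588 CPM in the old libraries and 6646, 6669, 5646 and 5905 CPM in the young libraries (log2 fold change -0.05 ± 0.36, adjusted p = 0.934), and none of the 10 passed. H2-Ob, which is expressed mainly in B cells, lay lower at 256, 145 and 271 CPM in the old libraries and 669, 677, 539 and 554 CPM in the young libraries (log2 fold change -1.45 ± 0.33, adjusted p = 0.0719). Among 12 inflammatory cytokine and chemokine genes 0 passed and 7 lay higher without overlap. Their median of 1.60 was 0.87 without old library 3 and 2.46 without young library 3. Il10, an anti-inflammatory cytokine, was at 23.1, 30.5 and 11.7 CPM in the old libraries and 1.07, 0.564, 2.15 and 1.12 CPM in the young libraries (log2 fold change 4.31 ± 0.76, adjusted p = 0.0561). Ccl8 was at 119, 52.01 and 32.6 CPM in the old libraries and 2.29, 0.564, 2.59 and 0.298 CPM in the young libraries (log2 fold change 5.64 ± 1.08, adjusted p = 0.0568), Ccl3 at 9.73 to 79.3 CPM in old and 2.27 to 2.85 CPM in young spleens and Ccl4 at 14.4 to 77.1 CPM in old and 1.64 to 4.82 CPM in young spleens. Tnf and Il6 overlapped, at 7.47 to 33.3 CPM in old and 11.7 to 18.2 CPM in young spleens and 0.523 to 1.52 CPM in old and 0.223 to 1.11 CPM in young spleens.

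Of 11 cell cycle inhibitor and p53 target genes 0 passed and 6 lay higher without overlap (median 0.87, and 0.55 without old library 1). Cdkn2a, which encodes p16 and p19 in transcripts that gene counts do not separate, was at 20.8, 3.698 and 13.4 CPM in the old libraries and 1.43, 0.9405, 1.0002 and 0.819 CPM in the young libraries (log2 fold change 3.59 ± 0.64, adjusted p = 0.0561). Cdkn1a, which encodes p21, was at 128, 23.3 and 32.8 CPM in the old libraries and 13.7, 14.4, 15.3 and 15.1 CPM in the young libraries (log2 fold change 1.92 ± 0.66, adjusted p = 0.119), and Cdkn2b overlapped at 2.06 to 10.02 CPM in old and 1.49 to 2.07 CPM in young spleens. Eda2r, a p53 target, was at 4.89, 3.49 and 3.56 CPM in the old libraries and 1.39, 1.36, 1.67 and 0.968 CPM in the young libraries (log2 fold change 1.55 ± 0.27, adjusted p = 0.0561). Old library 2 was lowest of the old libraries for Cdkn2a, Cdkn1a and Cdkn2b.

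Clock output genes lay lower in old spleens. Of 14 clock genes 0 passed, 8 lay lower and 1 higher without overlap, and the median was -0.71. Dbp, a clock-driven transcription factor, was at 3.68, 5.895 and 8.24 CPM in the old libraries and 28.1, 26.1, 16.9 and 24.6 CPM in the young libraries (log2 fold change -2.01 ± 0.39, adjusted p = 0.0569). Nr1d1, the repressor REV-ERB alpha, was at 9.71, 11.7 and 15.2 CPM in the old libraries and 42.2, 38.1, 26.8 and 40.5 CPM in the young libraries (log2 fold change -1.60 ± 0.42, adjusted p = 0.0832), and Per3 was at 8.37 to 18.7 CPM in old and 25.7 to 35.8 CPM in young spleens. Arntl, the core activator, was at 21.6 to 22.1 CPM in old and 25.1 to 31 CPM in young spleens (log2 fold change -0.32 ± 0.14, adjusted p = 0.175), and Per1 overlapped at 46.2 to 67.8 CPM in old and 60.9 to 135 CPM in young spleens. The time of day of collection is not given in the sources used here, so age and collection time cannot be told apart.

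**Figure D5:**
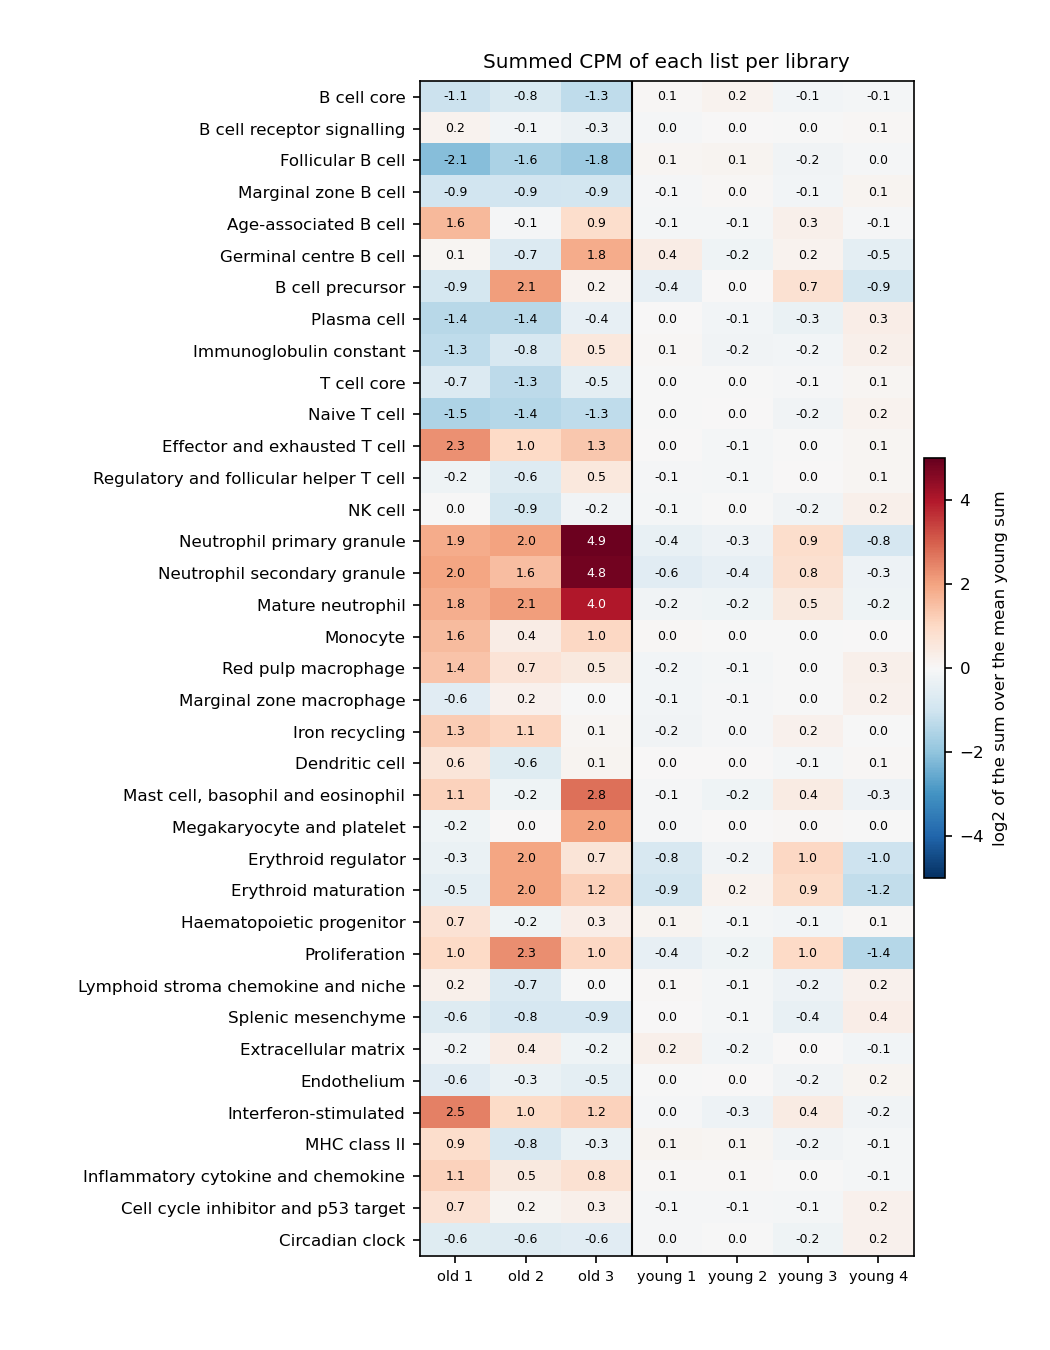
Summed CPM of each gene list in each library, as the log2 of its ratio to the mean young sum (cell labels and colours), with old libraries left of the line and young libraries right of it. Old library 3 stands apart in neutrophil, basophil and platelet lists, old library 2 in erythroid and proliferation lists, and old library 1 in interferon and effector T lists.

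The 3 old spleens differed from each other as well as from the young ones. Naive T cell sums were close to each other, at 863, 949 and 1055 CPM in the old libraries and 2494, 2529, 2261 and 2816 CPM in the young libraries. Primary granule sums were 201, 228 and 1655 CPM in the old libraries and 42.6, 46.2, 103 and 31.3 CPM in the young libraries. Effector T cell sums were 2208, 889 and 1138 CPM in the old libraries and 455, 422, 444 and 477 CPM in the young libraries, and interferon-stimulated sums were 6546, 2196 and 2522 CPM in the old libraries and 1098, 952, 1488 and 999.7 CPM in the young libraries. Old library 3 is the only old female, so within the old group its sex and its other differences cannot be told apart.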

How the data were processed

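Raw read counts per Ensembl gene, whole numbers without normalization as deposited by the authors, were read for the 10 spleen libraries. Total RNA was extracted with RNeasy and made into libraries with a stranded total RNA kit, per the labels' protocols. Per the submitters' processing notes the build was GRCm38. The sources used here do not name the aligner, counter, strand setting or annotation. The 60 single files were identical to the series table. Of 52636 gene IDs, 52489 matched a name (GENCODE M21 or the name table), and the others held 0.00967% of counts.

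Counts were filtered with filterByExpr, scaled by TMM and fitted in edgeR 4.0.16 (R 4.3.3) with group and sex over all 10 libraries. The contrast was untreated old minus young, tested two-sided by quasi-likelihood with Benjamini-Hochberg adjusted p under 0.05. Residual degrees of freedom were 6. Figures and summaries were made in Python 3.11.15. Counts were simulated for this comparison, with 19002 genes run. Recovered were 5% of 100 genes changed 2-fold and 62% of 100 changed 4-fold, with 2 unchanged genes called. These shares hold for the simulated settings and do not estimate power in the data. No pair of libraries agreed within sampling noise (chi-square per degree of freedom at least 13.17).

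The members and the 43 gene lists (454 genes, of which 434 were tested, 18 were under the filter and 2 had no match) were chosen with earlier results of these data known. Genes were named by a rule: the up to 10 called genes that rose and 10 that fell most above an average log2 CPM of 1, and called list members. The rule also took the first 4 members of each list as leading members. Up to a limit per list, it took the further members without overlap that changed most. Some genes that the rule names are not reported here. Genes named outside it, chosen after their values were seen, were Fpr1, Klrc3, Gsr, G6pdx, Mgst1, Msrb1, Kmt2c, Ash1l, Foxo1, Rel and Gm21188. List members named outside it, neither leading nor free of overlap, were Ighg3, Ighe, Igkc, Cd8a, Hbb-bs, Cxcr2, Prf1 and Actn1. Some members free of overlap were also named beyond the limit per list, among them Cd79b, Cd22, Tigit and Tox. Alternatives were DESeq2 1.42.0 as test and as scaling, library totals, voom (limma 3.58.1) with sample weights, robust fitting, glmTreat at 1.5-fold, other filters, other designs and left-out libraries.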

Additional observations from a re-analysis of the deposited data

Results flagged for a closer look

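In the young group, 1 of the 4 libraries lay far from the other 3 for 10 of the genes named and for 7 of the list sums, by the gap to the nearest library over the whole range. Of 210 values examined in this way, 17 passed, and chance passes about 1 in 20 of independent values. These values are not independent, because list sums hold some of the same genes and genes of a list move together. The 17 are therefore not separate findings. Young library 3 was the highest in 10 of the 17. In that library Ngp was at 176 CPM, Ltf at 95.6 CPM, Camp at 58.0 CPM, S100a8 at 133 CPM and S100a9 at 232 CPM, and the list sums were 412 CPM for secondary granule genes and 598 CPM for mature neutrophil genes. Isg15 was at 57.1 CPM and Itgax at 190 CPM there, and the sum of age-associated B cell genes was 423 CPM. Young library 1 was lowest for Adgre1, at 127 CPM, and for Gm45745, at 3.82 CPM. It was highest for kidney genes, at 43.3 CPM, and for hepatocyte genes, at 24.8 CPM. Young library 4 was highest for Il7r, at 295 CPM, for cell cycle inhibitor and p53 target genes, at 747 CPM, and for pancreatic acinar genes, at 48.2 CPM.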

How the results depend on the processing

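The number of called genes was 53, and it was 41 with DESeq2 size factors, 57 with library totals, 49 with robust fitting, 53 with the stricter filter and 67 without immunoglobulin, haemoglobin, mitochondrial and rRNA genes. It was larger with DESeq2's test (3054), voom with sample weights (1710), no sex covariate (1192), no low-count filter (241) and the 7 untreated libraries (2241; 898 higher and 1343 lower). It was 0 with glmTreat, in males alone and without old library 2 and young library 1 together, where 2282, 3709 and 2832 genes had an unadjusted p under 0.05. Leaving out 1 library in turn gave 0 to 75 calls, and the fits share the estimate of spread with the other libraries. The cause of these changes was not tested. All 53 called genes kept their direction under each of the 20 alternatives in which they were tested, and all 53 passed with DESeq2, voom, no sex covariate and the 7 untreated libraries. Those fits reuse the same libraries and call many more genes, so passing them is not separate support.

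Of 167 genes named, 150 kept their direction throughout, and of 42 list medians 31 did. Adgre1 was -0.093 with library totals, -0.015 with voom, -0.035 with the 7 untreated libraries and -0.18 without old library 2 and young library 1. With those 2 libraries left out, Cd74 was 0.14, Cd8a 0.035 and Igkc 0.0082. In males alone, Cd74 0.14, Cdh5 0.056, Ighm -0.021, Itga2b -0.055, Pf4 -0.22 and Xbp1 -0.0016, and Cd74 was 0.047 without the sex covariate. With 1 library left out in turn, the log2 fold changes ran from -0.10 to 0.51 for Adgre1, -0.52 to 0.23 for Cd74, -1.02 to 0.048 for Cd8a, -0.35 to 0.11 for Cdh5, -0.61 to 0.12 for Col3a1, -0.29 to 0.12 for Cxcl13, -1.35 to 0.0015 for Foxp3 and -0.41 to 3.35 for Ighg3. They ran from -0.13 to 1.22 for Ighm, -1.76 to 0.15 for Igkc, -0.16 to 1.37 for Itga2b, -1.50 to 0.017 for Marco, -0.32 to 1.35 for Pf4, -0.65 to 1.93 for S1pr2, -0.14 to 1.49 for Tbx21, -0.14 to 0.83 for Tnf and -0.27 to 0.36 for Xbp1.

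No paired analysis was possible because replicates are numbered in the order of the records, and the labels give no number that old and young spleens share. Simulated 2-fold changes were seldom recovered, and the parts of library number and depth in this were not compared. The simulation changed 100 genes 2-fold and 100 genes 4-fold, while 5460 genes in the data had an unadjusted quasi-likelihood p under 0.05. Recovery after adjustment depends on the number of changed genes and on their spread. In the data the median SD of log2 CPM was 0.31 in old and 0.16 in young spleens. How the simulation set spread is not given here, so its recoveries cannot be read as the power of this comparison.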

Other observations

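Several called genes belong to no list above. Among those that rose were enzymes of glutathione and NADPH metabolism. Gsr, which regenerates glutathione, was at 242, 183 and 255 CPM in the old libraries and 77.8, 77.2, 91.9 and 89.8 CPM in the young libraries (log2 fold change 1.44 ± 0.19, adjusted p = 0.041). G6pdx, which starts the pentose phosphate pathway, was at 118 to 154 CPM in old and 59.2 to 80.4 CPM in young spleens (log2 fold change 1.04 ± 0.16, adjusted p = 0.0475). Gstt2, a glutathione transferase (chr10:75831114-75837424), was at 186, 127 and 56.96 CPM in the old libraries and 30.4, 28.2, 24.97 and 22.4 CPM in the young libraries (log2 fold change 2.05 ± 0.28, adjusted p = 0.041). Mgst1, a microsomal glutathione transferase, was at 61.6 to 89.5 CPM in old and 28.5 to 36.3 CPM in young spleens (log2 fold change 1.17 ± 0.18, adjusted p = 0.0475), and Msrb1, which repairs oxidised methionine, was at 168, 149.8 and 160.2 CPM in the old libraries and 64.9, 57.8, 64.97 and 56.8 CPM in the young libraries (log2 fold change 1.36 ± 0.19, adjusted p = 0.041). Every old library was above every young one for these 5 genes, and none of the 53 called genes overlapped between groups. They were put together after their values were seen, so no count of them is evidence. Gda, guanine deaminase (chr19:21391307-21473445), was at 557, 347 and 313 CPM in the old libraries and 62.4, 73.7, 113 and 54.6 CPM in the young libraries (log2 fold change 2.41 ± 0.37, adjusted p = 0.0483). AA467197 (chr2:122636986-122641191) was at 6.17 to 14.6 CPM in old and 0.376 to 0.852 CPM in young spleens (log2 fold change 3.96 ± 0.57, adjusted p = 0.0466).

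The genes that fell are given next as single genes, and some were chosen after their values were seen, so no count of them is evidence. Kmt2c, a histone methyltransferase, was at 104, 106 and 101 CPM in the old libraries and 189, 210.1, 211 and 217 CPM in the young libraries (log2 fold change -0.98 ± 0.11, adjusted p = 0.0342). Ash1l, another, was at 81.2 to 101 CPM in old and 173 to 184 CPM in young spleens (log2 fold change -0.95 ± 0.13, adjusted p = 0.041), and Brwd1, a bromodomain protein needed in B cell development (chr16:95992092-96082526), was at 53.2, 66.6 and 73.3 CPM in the old libraries and 201, 221, 179 and 214 CPM in the young libraries (log2 fold change -1.67 ± 0.24, adjusted p = 0.0423). Foxo1, a factor of naive lymphocytes, was at 71.2 to 92.1 CPM in old and 175 to 214 CPM in young spleens (log2 fold change -1.32 ± 0.20, adjusted p = 0.0475), and Rel, an NF-kappaB subunit of lymphocytes, was at 99.8 to 109 CPM in old and 191 to 223 CPM in young spleens (log2 fold change -0.95 ± 0.13, adjusted p = 0.041). Chst3, a chondroitin sulfotransferase (chr10:60181532-60219260), was at 61.9, 92.6 and 90.3 CPM in the old libraries and 284, 305, 262 and 235 CPM in the young libraries (log2 fold change -1.74 ± 0.18, adjusted p = 0.0234). The monocarboxylate transporter gene Slc16a5 (chr11:115462474-115474398) was at 0.607 to 1.85 CPM in old and 7.11 to 8.999 CPM in young spleens (log2 fold change -2.83 ± 0.42, adjusted p = 0.047), and Gm45745 (chr8:25103489-25104668), whose annotation awaits experimental support, was at 1.25 to 1.66 CPM in old and 3.82 to 4.61 CPM in young spleens (log2 fold change -1.58 ± 0.23, adjusted p = 0.0466).

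Igsf23, an immunoglobulin superfamily gene (chr7:19937305-19950756), was nearly level within each group, at 0.5397, 0.453 and 0.567 CPM in the old libraries and 5.53, 5.78, 5.56 and 5.81 CPM in the young libraries (log2 fold change -3.50 ± 0.48, adjusted p = 0.041). A pair of genes on scaffolds that are not placed on a chromosome was near 0 in young spleens. AC168977.1 (scaffold GL456212.1) was at 23.9, 25.8 and 15.1 CPM in the old libraries and 0.678, 1.18, 0.815 and 0.633 CPM in the young libraries (log2 fold change 4.73 ± 0.59, adjusted p = 0.0386), and AC133103.1 (scaffold GL456211.1) was at 6.98, 7.95 and 4.27 CPM in the old libraries and 0, 0.09405, 0.111 and 0.0744 CPM in the young libraries (log2 fold change 6.75 ± 0.89, adjusted p = 0.041). Gm21188 (chr13:120034605-120052194) was at 2.84 to 3.52 CPM in old and 0.24997 to 0.558 CPM in young spleens (log2 fold change 2.81 ± 0.36, adjusted p = 0.0388). Reads from near-identical copies could be split among such genes, so their identity is uncertain.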
